A study of Mus musculus with 16 samples.

Results

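The protocadherin genes were examined by guide RNA in a mouse melanoma line and its tumours. Members were all gene symbols that begin with Pcdh in any of the 3 deposited tables, with no filter on counts, and they numbered 32 of 15653 listed genes. Of these, 27 belonged to the tandem clusters (1 alpha, 20 beta and 6 gamma genes) and 5 did not (Pcdh1, Pcdh7, Pcdh12, Pcdh17 and Pcdh19). The family was chosen by the fall of Pcdhb2 (ENSMUSG00000051599) in TDMa culture and TDMa tumours. For that reason Pcdhb2 is described there without a test, and the other members, selected on their symbol alone, keep the test of the fit over all genes. The table of TDM culture listed 22 members, that of TDMa culture 27 and that of TDMa tumours 28, and 19 were listed in all 3. Genes absent from a table were not analysed here.

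All 16 libraries came from B16F10, a melanoma line of the C57BL/6 mouse, carried as the derivatives B16F10-TDM and B16F10-TDMa. The series title speaks of demethylating and activating the Nlrc5 gene, whose protein switches on antigen-presentation genes, and the labels do not spell out what either derivative carries. Each derivative had been transduced with an sgRNA against Nlrc5 (sgNlrc5) or with a scramble sgRNA (sgScramble), so the controls carry the same derivative background. TDM culture and TDMa culture had 2 libraries for each guide, and TDMa tumours had 4 for each guide. The labels give neither the host mice nor the age of the tumours, nor whether a line was a single clone, nor whether replicates were separate cultures or animals. The p-values therefore measure the spread between these libraries, which may be partly technical.

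Protocadherins are transmembrane adhesion proteins of the cadherin superfamily, best known from the nervous system. The alpha, beta and gamma genes lie in tandem arrays in which each variable exon has a promoter of its own. Alpha and gamma variable exons are spliced to constant exons shared within their array, whereas beta genes consist of a variable exon alone. In neurons, promoter choice within the arrays depends on CTCF, cohesin looping and CpG methylation, and it gives a neuron a combination of isoforms that serves self-recognition. Non-clustered protocadherins are separate genes with roles in cell adhesion, sorting and migration. Beta genes are close paralogs of each other, and how reads shared between them, or between gamma genes through the constant exons, were counted was not given in the sources used here. Values of single clustered genes are uncertain to that extent.

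The values behind these results were log2 of a normalised count plus 1, and the libraries held between 12183889 and 16390886 reads over the listed genes. Nlrc5 itself was higher with sgNlrc5 in each table, with mean normalised counts of 68.0 with sgNlrc5 and 17.8 with sgScramble in TDM culture, 3144 with sgNlrc5 and 248 with sgScramble in TDMa culture, and 3916 with sgNlrc5 and 577 with sgScramble in TDMa tumours. All 7 melanocyte markers (Mitf, Sox10, Mlana, Pmel, Tyr, Tyrp1 and Dct) were listed in every table. In TDMa culture, 6 of these 7 were higher with sgNlrc5, with a summed 202900 to 203900 normalised counts with sgNlrc5 and 147000 to 149100 with sgScramble. In TDMa tumours, 7 of 7 macrophage markers and 7 of 7 T cell markers were higher with sgNlrc5. Their summed normalised counts were 11080 to 14320 with sgNlrc5 and 2946 to 4289 with sgScramble for macrophages, and 251 to 1007 with sgNlrc5 and 42.0 to 69.6 with sgScramble for T cells. In bulk tumour RNA, more cells of a type and more RNA per cell cannot be told apart. In TDMa culture, none of the T cell markers was listed, and the macrophage list was represented by Cd68, which was higher, at 1023 to 1069 with sgNlrc5 and 700.3 to 760.0 with sgScramble.

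In TDMa culture, genes at the Pcdhb2 end of the beta cluster fell with sgNlrc5, and several genes at the other end rose. Of the 16 beta genes tested beside Pcdhb2, limma called 6 lower (Pcdhb3, Pcdhb4, Pcdhb7, Pcdhb9, Pcdhb10 and Pcdhb11) and 4 higher (Pcdhb14, Pcdhb17, Pcdhb18 and Pcdhb22). Among all members tested, 14 of 23 were called, 9 lower and 5 higher, where 34.2% of the 12138 genes tested were called at an adjusted p under 0.05 (16.9% lower and 17.3% higher). With libraries scaled to equal sums, the calls over all genes split into 2587 lower and 1643 higher, in place of 2056 lower and 2100 higher. Because the choice of the family used this contrast, nothing is read from the count of members against that background. The median log2 fold change, sgNlrc5 minus sgScramble, was -0.31 over the 23 members and -0.00064 over all genes tested. Beside these changes, 4 of 6 Schwann cell and nerve markers were lower and 2 higher (summed 19030 to 19170 with sgNlrc5 and 27810 to 28400 with sgScramble). Of 5 fibroblast and pericyte markers, 3 were lower and 1 higher (326 to 395 with sgNlrc5 and 410.0 to 412 with sgScramble). The part of these shifts and of the higher melanocyte markers in the result was not tested.

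Pcdhb2 had normalised counts of 1.12 and 4.84 in sgNlrc5 cells, against 84.2 and 61.8 in sgScramble cells. That is 6 reads over both sgNlrc5 libraries and 153 over both sgScramble libraries, with a log2 fold change of -4.38. Its neighbour Pcdhb3 had 4.50 and 6.78 in sgNlrc5 cells, against 64.1 and 80.9 in sgScramble cells. Neither gene's groups overlapped. Here and below, separate groups are a description, because how often the groups of all genes separate is not given. With 2 libraries for each guide, groups of uncalled genes separated too. In TDM culture, Pcdhb16 had 63.0 and 70.1 with sgNlrc5, against 90.9 and 91.2 with sgScramble, and was not called. Pcdhb3 fell by 3.48 ± 0.37 on the log2 scale (SE, limma adjusted p = 7.03e-07). Pcdhb2 and Pcdhb3 passed the filter of a mean normalised count of 10 through their sgScramble libraries alone, which favours genes that differ.

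Pcdhb9 had 10.1 and 5.81 in sgNlrc5 cells, against 66.0 and 57.1 in sgScramble cells (log2 fold change -2.84 ± 0.37, limma adjusted p = 7.52e-06). Pcdhb10 had 4.50 and 1.94 in sgNlrc5 cells, against 21.1 and 19.98 in sgScramble cells (-2.42 ± 0.54, adjusted p = 0.00167). Pcdhb4 had 8.99 and 6.78 in sgNlrc5 cells, against 32.5 and 32.3 in sgScramble cells (-1.92 ± 0.40, adjusted p = 0.001). These genes stayed at a handful of reads in both sgNlrc5 libraries, and they too passed the filter through their sgScramble libraries alone. Pcdhb11 fell less in relative terms: it had 46.1 and 69.8 in sgNlrc5 cells, against 152 and 167 in sgScramble cells (-1.48 ± 0.21, limma adjusted p = 1.95e-05). Pcdhb7 had 25.9 and 31.0 in sgNlrc5 cells, against 61.2 and 84.7 in sgScramble cells (-1.32 ± 0.27, limma adjusted p = 8.86e-04). Pcdhb7 lost its call when sgScramble replicate 2 was left out, with an adjusted p that ranged from 4.83e-05 to 0.0566 over the alternatives. Pcdhb5, which lies within the same stretch, was not called: it had 91.1 and 52.3 in sgNlrc5 cells, against 98.5 and 108 in sgScramble cells (-0.58 ± 0.23, limma adjusted p = 0.0672). It was called lower with a mean of at least 50, with equal sums and with a replicate block (limma adjusted p = 0.041, 0.0441 and 0.0241). Its log2 fold change depended on single libraries. It was -0.97 without sgNlrc5 replicate 1, and ran from -0.97 to -0.18 over the alternatives. Pcdhb8 was listed below the filter of a mean normalised count of 10, with 2.25 and 1.94 in sgNlrc5 cells, against 5.74 and 10.5 in sgScramble cells.

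The genes that rose in TDMa culture lay from Pcdhb14 onward. Pcdhb18 had 82.1 and 103 in sgNlrc5 cells, against 42.1 and 26.6 in sgScramble cells (1.43 ± 0.26, limma adjusted p = 3.11e-04). Pcdhb14 had 72.0 and 68.8 in sgNlrc5 cells, against 42.1 and 30.4 in sgScramble cells (0.95 ± 0.26, adjusted p = 0.0071). Both genes had separate groups. Pcdhb22 had 110.2 and 94.0 in sgNlrc5 cells, against 70.8 and 53.3 in sgScramble cells (0.72 ± 0.21, limma adjusted p = 0.0135). Pcdhb17 had 109 and 108 in sgNlrc5 cells, against 74.6 and 60.9 in sgScramble cells (0.68 ± 0.20, limma adjusted p = 0.0123). All 4 of these calls ended without the intensity trend in the variance. Leaving out a single library of either guide also ended calls. Without sgScramble replicate 2 this held for Pcdhb14 (log2 fold change 0.73), Pcdhb17 (0.53) and Pcdhb22 (0.52). Without sgNlrc5 replicate 1 it held for Pcdhb17 (0.67) and Pcdhb22 (0.61), and without sgNlrc5 replicate 2 for Pcdhb17 (0.69). Over the alternatives the adjusted p ran from 1.3e-06 to 0.0566 for Pcdhb18, from 0.00238 to 0.102 for Pcdhb14, from 0.00458 to 0.171 for Pcdhb22 and from 0.00578 to 0.136 for Pcdhb17.

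The other 5 genes from Pcdhb12 to Pcdhb22 tested in TDMa culture were not called. Pcdhb16 had 263 and 243 in sgNlrc5 cells, against 193 and 213 in sgScramble cells, a log2 fold change of 0.32 ± 0.12 with a limma adjusted p of 0.0536. It was called under 4 of 12 alternatives. Pcdhb21 had 70.8 and 58.1 in sgNlrc5 cells, against 36.4 and 60.9 in sgScramble cells, and its groups overlapped. Pcdhb20 was the only gene of the 5 with a negative log2 fold change, with 45.0 and 30.0 in sgNlrc5 cells, against 45.9 and 49.5 in sgScramble cells. Pcdhb15 (0.32 ± 0.35) and Pcdhb19 (0.29 ± 0.36) lay at normalised counts between 17.2 and 25.2 in all 4 libraries.

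**Figure D1:**
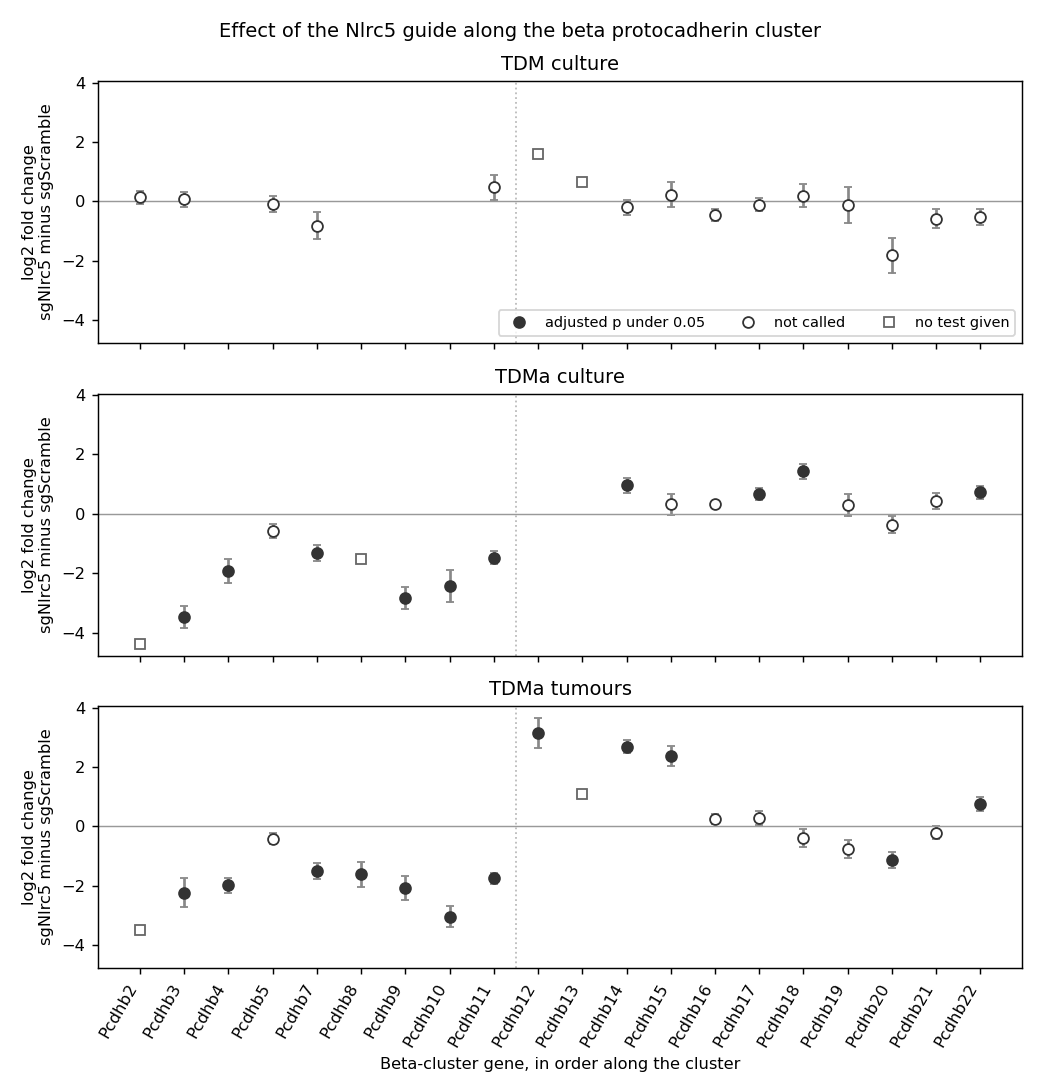
Log2 fold change (sgNlrc5 minus sgScramble, y axis) of each listed beta-cluster gene in its order along the cluster (x axis) in TDM culture, TDMa culture and TDMa tumours. Bars are standard errors, filled circles passed an adjusted p under 0.05 in limma, open circles did not, and squares have no test (Pcdhb2 in TDMa culture and tumours, and genes below the filter). The dotted line stands between Pcdhb11 and Pcdhb12: all 9 listed genes to its left lie below 0 in TDMa culture and in TDMa tumours.

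Taken by position, all 9 listed genes from Pcdhb2 to Pcdhb11 had a negative log2 fold change in TDMa culture, between -4.38 and -0.58. The 9 listed genes from Pcdhb12 to Pcdhb22 lay between -0.37 and 1.43. This division of the cluster was made after the values had been seen, so it is a description and carries no test. The order of the genes was taken from RefSeq for the earlier build GRCm38.p6, whereas the submitters' notes name GRCm39.

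In TDMa tumours, the stretch from Pcdhb2 to Pcdhb11 was again low with sgNlrc5, and Pcdhb12, Pcdhb14 and Pcdhb15 rose by between 2.37 and 3.14 on the log2 scale. These are 8 libraries other than those of the culture, but of the same derivative with the same guides. A difference carried by the transduced lines cannot be told apart from a guide effect in either table. Of the 18 beta genes tested beside Pcdhb2, limma called 8 lower (Pcdhb3, Pcdhb4, Pcdhb7, Pcdhb8, Pcdhb9, Pcdhb10, Pcdhb11 and Pcdhb20) and 4 higher (Pcdhb12, Pcdhb14, Pcdhb15 and Pcdhb22). No gamma or non-clustered member was called, so 12 of 23 members were called, where 39.4% of the 13385 genes tested were called (19.7% lower and 19.7% higher). The choice of the family used this contrast too, and nothing is read from that count. The median log2 fold change was -0.42 over the 23 members and -0.010 over all genes tested. Macrophage and T cell markers were higher in these sgNlrc5 tumours, as given above, and 4 of 9 fibroblast and pericyte markers were higher and 1 lower (summed 826 to 1056 with sgNlrc5 and 365 to 891 with sgScramble), among them Thy1 at a log2 fold change of 2.12. The part of these cells in the changes was not tested.

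Pcdhb2 had normalised counts of 1.00, 7.51, 6.33 and 5.02 in sgNlrc5 tumours, against 87.3, 39.2, 69.6 and 49.4 in sgScramble tumours (log2 fold change -3.51). Pcdhb10 had 10.0, 20.4, 5.43 and 6.03 in sgNlrc5 tumours, against 91.9, 84.0, 69.6 and 86.4 in sgScramble tumours. Each sgNlrc5 tumour lay below each sgScramble tumour for both genes, and Pcdhb10 fell by 3.04 ± 0.36 on the log2 scale (limma adjusted p = 1.05e-04). Pcdhb3 had 23.1, 18.2, 2.71 and 9.04 in sgNlrc5 tumours, against 47.1, 53.5, 42.8 and 72.3 in sgScramble tumours (-2.23 ± 0.50, limma adjusted p = 0.00462). Pcdhb9 had 13.0, 76.1, 34.4 and 57.3 in sgNlrc5 tumours, against 182, 153, 149 and 166 in sgScramble tumours (-2.07 ± 0.41, limma adjusted p = 0.00224). Both genes varied widely among the sgNlrc5 tumours and still did not overlap with the sgScramble tumours.

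Pcdhb4 had 13.0, 29.0, 20.8 and 26.1 in sgNlrc5 tumours, against 83.9, 85.0, 89.5 and 90.0 in sgScramble tumours (-1.98 ± 0.25, limma adjusted p = 1.6e-04). Pcdhb11 had 70.2, 118, 60.6 and 93.4 in sgNlrc5 tumours, against 287, 309, 289 and 244 in sgScramble tumours (-1.75 ± 0.19, limma adjusted p = 6.71e-05). Pcdhb7 had 31.1, 85.8, 55.2 and 45.2 in sgNlrc5 tumours, against 137, 135, 160.1 and 154 in sgScramble tumours (-1.50 ± 0.26, limma adjusted p = 9.7e-04). The groups were separate for each of the 3 genes. Pcdhb8 passed the filter here, through the sgScramble tumours alone. It had 8.02, 8.58, 11.8 and 4.02 in sgNlrc5 tumours, against 51.7, 20.1, 22.9 and 17.6 in sgScramble tumours (-1.62 ± 0.43, limma adjusted p = 0.0109). Pcdhb5 was again not called, with 87.2, 128, 110.3 and 92.4 in sgNlrc5 tumours, against 143, 159, 158 and 102 in sgScramble tumours (-0.42 ± 0.18, limma adjusted p = 0.0912). It was called lower under 2 of 16 alternatives.

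Among the genes further along, Pcdhb14 (ENSMUSG00000044043) had 286, 464, 251 and 334 in sgNlrc5 tumours, against 41.4, 64.0, 57.7 and 39.7 in sgScramble tumours. It rose by 2.69 ± 0.22 on the log2 scale (limma adjusted p = 1.36e-05). Pcdhb15 had 70.2, 51.5, 64.2 and 69.3 in sgNlrc5 tumours, against 11.5, 14.3, 18.9 and 5.29 in sgScramble tumours (2.37 ± 0.34, limma adjusted p = 3.58e-04). For both genes the lowest sgNlrc5 tumour lay well above the highest sgScramble tumour. Pcdhb12 had 30.1, 54.7, 28.9 and 28.1 in sgNlrc5 tumours, against 1.15, 9.55, 2.98 and 1.76 in sgScramble tumours (3.14 ± 0.51, limma adjusted p = 7e-04), and it passed the filter through the sgNlrc5 tumours alone. Its neighbour Pcdhb13 lay below the filter, with 8.02, 4.29, 6.33 and 10.1 in sgNlrc5 tumours, against 1.15, 2.86, 3.98 and 3.53 in sgScramble tumours.

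Pcdhb22 rose by a smaller amount, with 155, 169, 102 and 105 in sgNlrc5 tumours, against 70.1, 53.5, 100.4 and 90.0 in sgScramble tumours (0.76 ± 0.24, limma adjusted p = 0.0239). Its call ended under 5 of 16 alternatives, among them leaving out sgNlrc5 replicate 1 or 2 or sgScramble replicate 1 or 2, with adjusted p from 0.0169 to 0.0778. Pcdhb20 fell, with 91.3, 68.6, 38.9 and 41.2 in sgNlrc5 tumours, against 115, 109, 158 and 126 in sgScramble tumours (-1.14 ± 0.26, limma adjusted p = 0.00531). Its groups did not overlap. The genes Pcdhb16, Pcdhb17, Pcdhb18, Pcdhb19 and Pcdhb21 were not called, with log2 fold changes between -0.76 and 0.29. The nearest of them to the threshold was Pcdhb19, with 15.0, 34.3, 16.3 and 25.1 in sgNlrc5 tumours, against 33.3, 37.2, 37.8 and 40.6 in sgScramble tumours (limma adjusted p = 0.0564). Pcdhb19 was called lower under 4 of 15 alternatives.

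**Figure D2:**
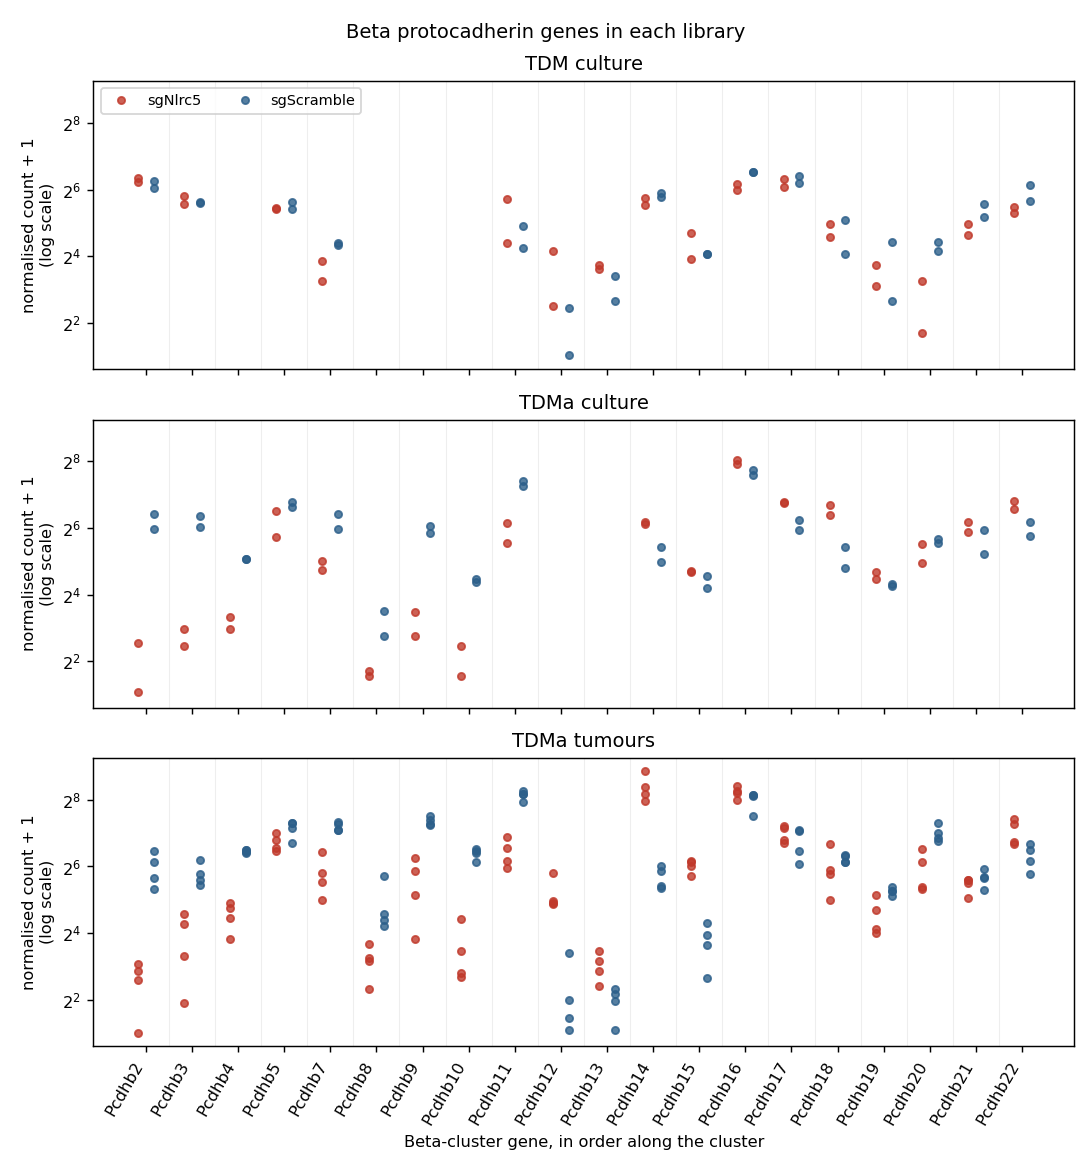
Normalised count plus 1 (log scale, y axis) of each listed beta-cluster gene (x axis, in cluster order) in every library, with sgNlrc5 in red to the left of sgScramble in blue. In TDMa culture and TDMa tumours the red points of Pcdhb2 lie at or below 7.51 normalised counts and the blue points at or above 39.2, whereas in TDM culture the points lie together.

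Within a library, the share of beta-cluster reads that fell on Pcdhb2 to Pcdhb11 does not depend on how libraries were scaled. In TDMa culture it was 19.4% ± 0.0707 with sgNlrc5 and 52.9% ± 1.20 with sgScramble (SD, n = 2 each). In TDMa tumours it was 22.5% ± 2.91 with sgNlrc5, from 18.3% to 24.9%, and 56.8% ± 3.03 with sgScramble, from 53.1% to 59.9% (SD, n = 4 each). These shares include Pcdhb2, on which the family was chosen. Without Pcdhb2, an alternative added after seeing the data, the share was 19.2% ± 0.283 with sgNlrc5 and 49.6% ± 2.12 with sgScramble in TDMa culture (SD, n = 2 each), and 22.3% ± 2.76 with sgNlrc5 and 55.4% ± 2.95 with sgScramble in TDMa tumours (SD, n = 4 each). In TDM culture the share was 38.8% ± 2.05 with sgNlrc5 and 33.6% ± 0.495 with sgScramble, but fewer genes of the stretch were listed there (5, against 9 in the other tables). The stretch was defined after the values had been seen, so the gap between guides is a description.

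**Figure D3:**
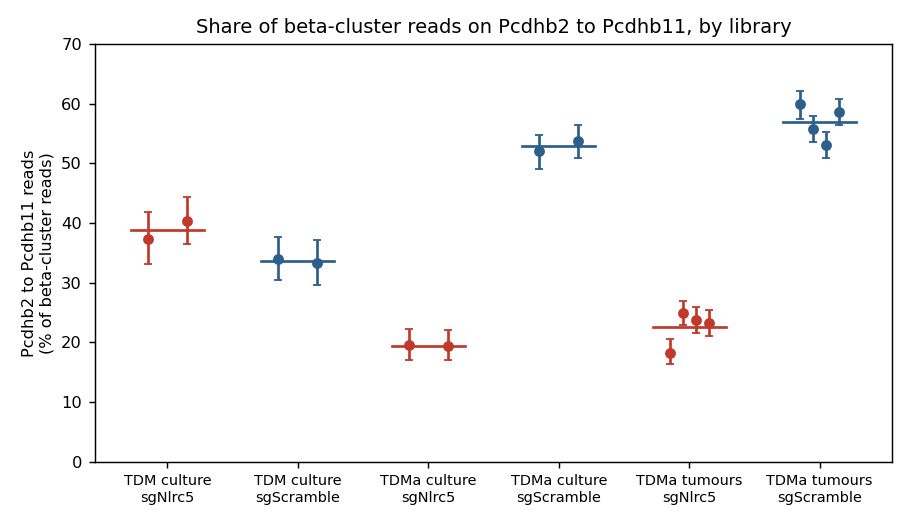
Percent of beta-cluster reads that lay on the listed genes from Pcdhb2 to Pcdhb11 (y axis) in each library, by table and guide (x axis). Points are libraries with 95% Wilson intervals, which cover counting error only, and lines are group means: 19.4% with sgNlrc5 and 52.9% with sgScramble in TDMa culture, and 22.5% with sgNlrc5 and 56.8% with sgScramble in TDMa tumours.

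The summed beta cluster came to 964 ± 45.3 normalised counts in sgNlrc5 cells and 1143 ± 24.0 in sgScramble cells of TDMa culture (SD, n = 2 each), a log2 ratio of -0.25 that was -0.40 without its highest member, Pcdhb16. In TDMa tumours it came to 1533 ± 303 with sgNlrc5 and 1842 ± 124 with sgScramble (SD, n = 4 each), and the ranges overlapped. In TDM culture it came to 556 ± 16.8 with sgNlrc5 and 614 ± 28.1 with sgScramble (SD, n = 2 each). These sums are dominated by the members with most reads, and no test was run on them.

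In TDM culture, none of the 20 members tested passed limma's threshold, where 0.517% of 11989 genes did. With voom weights, 0 members passed the same adjusted threshold. Pcdhb2 had 73.1 and 80.5 in sgNlrc5 cells, against 64.4 and 75.3 in sgScramble cells (log2 fold change 0.14 ± 0.21, limma adjusted p = 0.895), and its groups overlapped. Pcdhb3 had 55.1 and 46.4 in sgNlrc5 cells, against 47.6 and 48.8 in sgScramble cells (0.07 ± 0.25). Pcdhb14 had 45.0 and 53.0 in sgNlrc5 cells, against 58.2 and 54.1 in sgScramble cells (-0.20 ± 0.25). The member with the smallest p was Pcdh7, at 545.5 and 692 in sgNlrc5 cells, against 448 and 443 in sgScramble cells (0.46 ± 0.10, limma adjusted p = 0.0576). It passed when sgNlrc5 replicate 1 or either sgScramble replicate was left out and with a replicate block, with adjusted p from 0.00372 to 0.588 over the alternatives. The largest log2 fold change among tested members was that of Pcdhb20, with 2.25 and 8.52 in sgNlrc5 cells, against 20.3 and 17.0 in sgScramble cells (-1.81 ± 0.59, limma adjusted p = 0.329). The other beta genes tested lay between -0.82 and 0.48, and Pcdhb12 and Pcdhb13 were below the filter.

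The guide effect was also compared between the lines and between tumour and culture with limma interaction terms, which share the TDMa culture libraries. Between TDMa culture and TDM culture, 8 of 18 members differed, where 22.7% of 11492 genes did (10.8% lower and 12.0% higher). The TDMa culture contrast within it was used to choose the family, so nothing is read from that count. The effect was lower in TDMa culture for Pcdhb3 (log2 difference -3.55 ± 0.46, limma adjusted p = 1.59e-06), and likewise for Pcdhb11 (-1.95), Pcdh7 (-1.34) and Pcdh12 (-1.31). It was higher in TDMa culture for Pcdhgb2 (1.63), Pcdhb22 (1.24), Pcdhb14 (1.15) and Pcdhb16 (0.76). For Pcdhb2 the difference was -4.51, given without a test. The count was 5 without TDMa culture sgNlrc5 replicate 1 and 4 without TDM culture sgScramble replicate 2. Of these 8 members, Pcdh7, Pcdh12 and Pcdhb3 kept their call under every alternative run. Pcdhb3 had passed the filter in TDMa culture through the sgScramble libraries. Pcdhgb2 had passed it there through the sgNlrc5 libraries alone, with 6 reads over the sgScramble libraries. The call of Pcdhgb2 ended with a pseudocount of 4, where the difference was 1.03 (limma adjusted p = 0.0873).

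Between TDMa tumours and TDMa culture, 6 of 21 members differed, where 36.6% of 11782 genes did (21.6% lower and 15.0% higher). Both contrasts within it were used to choose the family, and nothing is read from that count either. The effect was higher in tumours for Pcdhb15 by 2.05 ± 0.44 on the log2 scale (limma adjusted p = 0.00189), for Pcdhb14 by 1.73 ± 0.30 (adjusted p = 3.31e-04) and for Pcdh7 by 1.27 ± 0.27 (adjusted p = 0.00166). It was lower in tumours for Pcdh17 (-1.83 ± 0.51, limma adjusted p = 0.0103), Pcdhb18 (-1.83 ± 0.40, adjusted p = 0.00221) and Pcdhb19 (-1.05 ± 0.39, adjusted p = 0.0439). The call of Pcdhb19 ended under 12 of 20 alternatives, with adjusted p from 0.0158 to 0.114, and the other 5 kept theirs. No gene from Pcdhb3 to Pcdhb11 was called in this comparison: Pcdhb3 differed by 1.25 ± 0.61 (adjusted p = 0.124), and the other members of that stretch tested differed by -0.62 to 0.77. A difference that missed the threshold does not show that the effects were equal.

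The gamma genes gave few reads. Pcdhgb2 had 18.0 and 19.4 in sgNlrc5 cells of TDMa culture, against 2.87 and 2.85 in sgScramble cells, which is 36 reads with sgNlrc5 and 6 with sgScramble (log2 fold change 2.35 ± 0.53, limma adjusted p = 0.00191). It passed the filter there through the sgNlrc5 libraries alone. In TDM culture it had 83.2 and 85.2 in sgNlrc5 cells, against 49.4 and 52.0 in sgScramble cells (0.72 ± 0.22, limma adjusted p = 0.252). In TDMa tumours it lay below the filter, between 3.22 and 11.1 with sgNlrc5 and between 4.41 and 10.9 with sgScramble. Among gamma genes it was the only call in TDMa culture. Pcdhgb8 had 46.1 and 26.2 in sgNlrc5 cells, against 44.0 and 41.9 in sgScramble cells of TDMa culture, and it was not called in any table. Pcdhgb6, listed in TDM culture alone, had 15.8 and 14.2 in sgNlrc5 cells, against 5.29 and 5.30 in sgScramble cells (1.34 ± 0.54, limma adjusted p = 0.469). Pcdhga1 had 5 reads with sgNlrc5 and 22 with sgScramble in TDMa culture, and Pcdhga3 had 10 reads with each guide.

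In TDMa tumours, Pcdhgc5 had 3.01, 5.36, 30.7 and 18.1 with sgNlrc5, against 1.15, 9.55, 2.98 and 7.06 with sgScramble, below the filter. The only alpha gene listed was Pcdha8, in TDMa tumours, with 8 reads over the sgNlrc5 tumours and 33 over the sgScramble tumours. The summed gamma genes came to 120.2 ± 2.90 with sgNlrc5 and 92.3 ± 4.51 with sgScramble in TDM culture (SD, n = 2 each), a log2 ratio of 0.38 that turned to -0.21 without Pcdhgb2. In TDMa culture they came to 62.4 ± 8.76 with sgNlrc5 and 61.1 ± 5.65 with sgScramble (SD, n = 2 each), and without Pcdhgb8 the log2 ratio was 0.53 in place of 0.03.

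The filter on low values lets a gene through on the level of a single guide, which favours genes that differ. Members that passed with a mean below 10 for a guide were, in TDM culture, Pcdhb19, Pcdhb20 and Pcdhgb6. In TDMa culture they were Pcdhb2, Pcdhb3, Pcdhb4, Pcdhb9, Pcdhb10, Pcdh19 and Pcdhgb2, and in TDMa tumours Pcdhb2, Pcdhb8, Pcdhb12 and Pcdh12. Members that passed numbered 20 of 22 in TDM culture, 24 of 27 in TDMa culture and 24 of 28 in TDMa tumours, Pcdhb2 included. Counts of calls over them are therefore no support for a shared direction.

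Of the non-clustered genes, Pcdh19, Pcdh12 and Pcdh7 fell with sgNlrc5 in TDMa culture, and none was called in TDMa tumours. Pcdh19 (ENSMUSG00000051323), an adhesion protein of neurons whose human counterpart is mutated in an X-linked epilepsy, had no read in either sgNlrc5 library, against 26.8 and 28.5 in sgScramble cells. Those are 58 reads over the sgScramble libraries. With a limit of 3 reads over the sgNlrc5 group, Pcdh19 was at least 17.7-fold lower. It had no read with sgNlrc5 and passed the filter through its sgScramble libraries alone, so no p is given for it. It was not listed in the other tables and is not analysed there.

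Promoters are shown because CpG methylation is the process that the study set out to alter. Pcdh19, Pcdh7 and Pcdh17 were the only 3 members with a promoter in the reference set used here, so they were not picked by their results. Each promoter runs from 250 bases before to 50 bases after the start site, 5′ to 3′ on the gene's own strand, from RefSeq for GRCm38.p6, with every CG in capitals. The Pcdh19 window is chrX:133688944-133689243 on the minus strand, that of Pcdh7 chr5:57717831-57718130 on the plus strand, and that of Pcdh17 chr14:84443313-84443612 on the plus strand.
Pcdh19: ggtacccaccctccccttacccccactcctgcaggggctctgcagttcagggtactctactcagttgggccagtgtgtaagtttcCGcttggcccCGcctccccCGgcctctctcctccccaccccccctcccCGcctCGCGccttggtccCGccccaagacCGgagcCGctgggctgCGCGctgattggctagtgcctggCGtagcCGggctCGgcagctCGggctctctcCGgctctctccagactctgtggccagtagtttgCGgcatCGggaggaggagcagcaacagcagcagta
Pcdh7: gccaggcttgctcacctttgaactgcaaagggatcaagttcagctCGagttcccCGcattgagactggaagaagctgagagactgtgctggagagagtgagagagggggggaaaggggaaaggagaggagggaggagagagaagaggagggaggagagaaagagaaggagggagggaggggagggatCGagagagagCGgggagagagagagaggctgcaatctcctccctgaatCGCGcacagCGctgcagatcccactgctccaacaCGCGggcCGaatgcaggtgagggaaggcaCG
Pcdh17: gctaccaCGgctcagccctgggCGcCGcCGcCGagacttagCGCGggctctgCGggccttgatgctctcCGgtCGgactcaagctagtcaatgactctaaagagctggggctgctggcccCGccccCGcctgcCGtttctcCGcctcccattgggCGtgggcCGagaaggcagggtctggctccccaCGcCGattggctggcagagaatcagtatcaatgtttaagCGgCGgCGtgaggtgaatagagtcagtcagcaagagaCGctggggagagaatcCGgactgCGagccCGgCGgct
The windows hold 18 CG for Pcdh19, 11 for Pcdh7 and 26 for Pcdh17, where the median over 32851 promoters of the same length was 7. Of these promoters, 29.7% held at least as many CG as Pcdh19, 41.4% as many as Pcdh7 and 16.9% as many as Pcdh17. CG reads the same on both strands and was the only motif searched. Methylation was not measured in these files.

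Pcdh7, a widely expressed adhesion protein, had 118 and 110.4 in sgNlrc5 cells, against 193 and 228 in sgScramble cells of TDMa culture (-0.87 ± 0.15, limma adjusted p = 1.56e-04). In TDMa tumours it had 86.2, 132, 137 and 137 with sgNlrc5, against 59.8, 102, 111 and 102 with sgScramble (0.40 ± 0.23, limma adjusted p = 0.179). Its groups were separate in culture, with sgNlrc5 lower, and overlapped in tumours. Pcdh17, a synaptic adhesion protein, was not called in either table: it had 19.1 and 20.3 in sgNlrc5 cells, against 9.57 and 10.5 in sgScramble cells of TDMa culture (0.91 ± 0.42, limma adjusted p = 0.105). In TDMa tumours it had 8.02, 10.7, 9.04 and 22.1 with sgNlrc5, against 14.9, 34.4, 28.8 and 17.6 with sgScramble (-0.92 ± 0.40, limma adjusted p = 0.0879). Pcdh17 was called under 2 of 11 alternatives in TDMa culture and under 2 of 15 in TDMa tumours.

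Pcdh12, known from vascular endothelium and placenta, had 34.9 and 28.1 in sgNlrc5 cells, against 89.0 and 102 in sgScramble cells of TDMa culture (-1.57 ± 0.24, limma adjusted p = 5.14e-05). In TDMa tumours it had 4.01, 6.44, 19.9 and 5.02 with sgNlrc5, against 11.5, 15.3, 11.9 and 10.6 with sgScramble (-0.67 ± 0.48, limma adjusted p = 0.289). A single sgNlrc5 tumour lay above all sgScramble tumours and the other 3 lay below them. Of 8 endothelial markers, 1 was listed in TDMa culture and 6 in TDMa tumours. The defining marker Cdh5 lay between 7.02 and 60.3 in sgNlrc5 tumours and between 2.30 and 38.2 in sgScramble tumours, 4 endothelial markers were tested and none was called. In culture the listed marker was Vwf, at 1268 to 1295 with sgNlrc5 and 507 to 554 with sgScramble, and Cdh5 was not listed. The part of endothelial cells in the values of Pcdh12 was not tested. Pcdh12 lies on chromosome 18, as the clustered genes do, and whether its fall in culture goes with theirs was not tested. Pcdh1, an adhesion protein of epithelia, had 39.4 and 33.9 in sgNlrc5 cells, against 50.7 and 40.9 in sgScramble cells of TDMa culture. It was not called in any table.

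**Figure D4:**
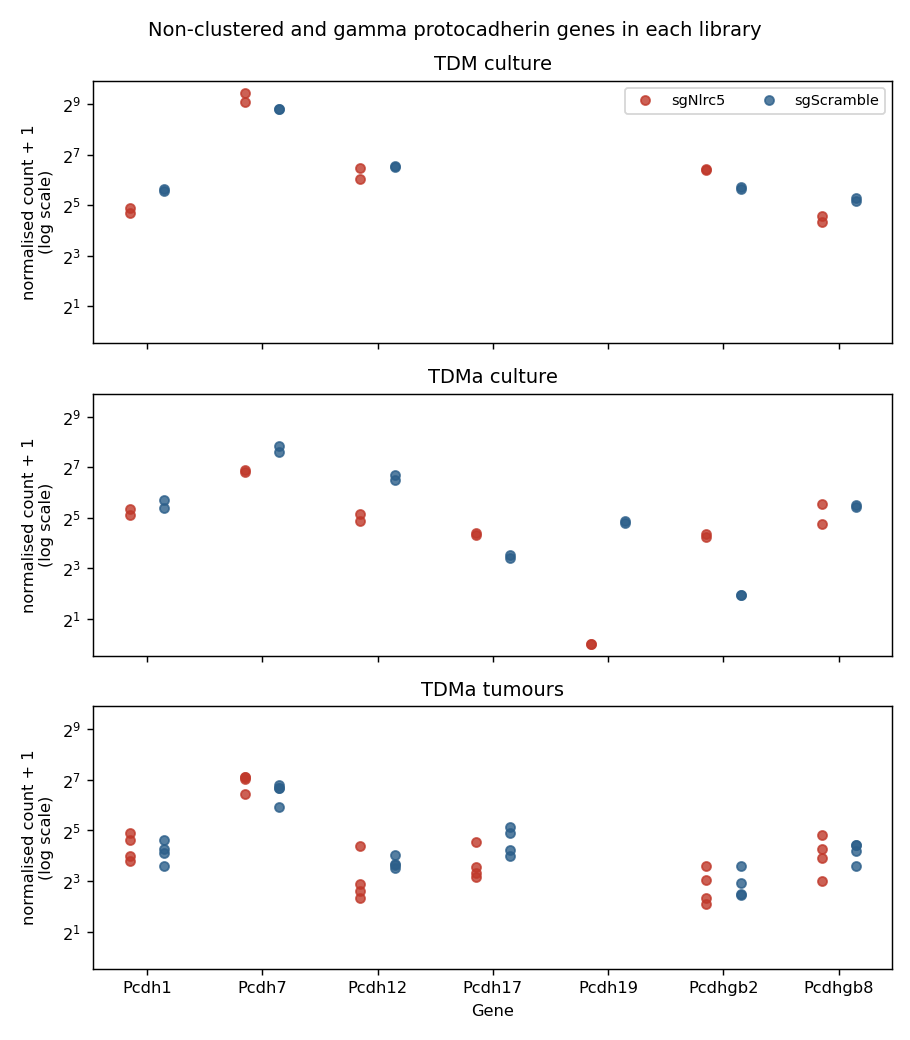
Normalised count plus 1 (log scale, y axis) of the 5 non-clustered members and of the gamma genes Pcdhgb2 and Pcdhgb8 (x axis) in every library, with sgNlrc5 in red to the left of sgScramble in blue. In TDMa culture Pcdh19 has no read with sgNlrc5 and 26.8 and 28.5 with sgScramble. A gene without points was not listed in that table.

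Genes known to act on the clusters were described from lists. Of 28 genes for architecture and silencing of the clusters (CTCF, cohesin and its loaders, DNA methyltransferases, TET enzymes and repressors), limma called 13 higher and 1 lower in TDMa culture (17.3% of all genes higher and 16.9% lower), with a median log2 fold change of 0.11. The 4 with the smallest p were Dnmt1 (maintenance methyltransferase, 0.25 ± 0.03), Rad21 (cohesin, 0.24 ± 0.03), Nipbl (cohesin loader, 0.32 ± 0.05) and Stag2 (cohesin, 0.27 ± 0.04). In TDMa tumours, 17 of the 28 were lower and 0 higher (19.7% of all genes each way), with a median of -0.36, led by Smc3 (cohesin, -1.18 ± 0.10), Smc1a (cohesin, -0.85 ± 0.08), Tet1 (methylcytosine dioxygenase, -1.10 ± 0.10) and Wapl (cohesin release, -0.73 ± 0.07). In the interaction, 18 of the 28 had a lower guide effect in tumours than in culture and 0 a higher one, where 21.6% of all genes were lower and 15.0% higher. With equal sums, an alternative applied to the lists after seeing the data, the culture count was 9 higher and 1 lower.

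Of the genes that flank the clusters, limma called 7 of 16 lower and 0 higher in TDMa culture (median -0.14), where 16.9% of all genes were lower and 17.3% higher. Arap3, a GTPase-activating protein, fell most clearly (-1.45 ± 0.19), and Hars (-0.29), Wdr55 (-0.23) and Ik (-0.14) fell by less. In TDMa tumours, 7 of 17 were lower and 1 higher (median -0.31), where 19.7% of all genes were called each way, led by Wdr55 (-0.93), Ik (-0.62), Hdac3 (-0.56) and Hars (-0.59).

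Of 26 intracellular partners and processing enzymes tested, 5 were lower and 5 higher in TDMa culture (median 0.02), close to the 34.2% of all genes called. They were led by Adam10 (a sheddase, -0.55 ± 0.04), Nckap1 (WAVE complex, 0.31), Ctnnb1 (beta-catenin, 0.24) and Brk1 (WAVE complex, -0.26). In TDMa tumours, 4 were lower and 6 higher (median -0.06), close to the 39.4% of all genes called, among them Aph1a (gamma-secretase, 0.64), Adam10 (0.80 ± 0.12) and Wasf1 (WAVE complex, -0.63). Of other cadherin superfamily genes, 0 of 12 were lower and 2 higher in TDMa culture (Celsr2, 0.50, and Clstn1, 0.22). In TDMa tumours, 3 of 14 were lower (Cdhr2, -0.68, Celsr3, -0.68, and Cdh15, -1.07) and 1 was higher (Clstn1, 0.31). The share of these genes called lay below that of all genes in both tables (34.2% in TDMa culture and 39.4% in TDMa tumours), and nothing is read from these counts. In TDM culture none of the 28, 26, 18 and 11 members of these lists tested was called by limma.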

How the data were processed

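RNA from 16 libraries had been sequenced with a directional kit, per the labels' protocols. The authors deposited 1 table each for TDM culture, TDMa culture and TDMa tumours, with log2 values of the normalised count plus 1, per the file headers. Tools named in the submitters' processing notes, with no roles, are DESeq2 1.36.0, STAR 2.7.10a and FastQC 0.12.0, and GRCm39 is the build. Which annotation, counting tool and strand setting were used is not given in the sources used here. Reads quoted were recovered from the low values, of which 100% lay within 0.1 of a whole read.

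The deposited values of each table were fitted separately in R 4.3.3 with limma 3.58.1 and an intensity trend, keeping genes whose normalised counts averaged at least 10. Tests were two-sided with Benjamini-Hochberg adjustment over all genes tested and a threshold of 0.05. Fold changes on that scale understate the change of low genes. Interaction models took every group of both tables as a level and weighted the libraries by table. Errors after log2 fold changes are standard errors. The fits were tested on simulated data with known changes. Alternatives covered the filter (none, or a mean of 50), a pseudocount of 4, the trend, the scaling, voom weights, a replicate block and leaving out each library. The members, the 4 gene lists and the markers were chosen with earlier results of these data known. All members are accounted for, and up to 4 called genes with the smallest p are named from each list. A gene that this rule would name is not reported here.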

Additional observations from a re-analysis of the deposited data

Results flagged for a closer look

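Among 48 sets of 4 tumours tested for a library far from the others, 5 stood out by Dixon's criterion, where chance gives about 1 in 20. Pcdhb12 was 54.7 in sgNlrc5 replicate 2, against 28.1 to 30.1 in the other sgNlrc5 tumours. Pcdh12 was 19.9 in sgNlrc5 replicate 3, against 4.01 to 6.44 in the others, and Pcdh7 was 86.2 in sgNlrc5 replicate 1, against 132 to 137. Among sgScramble tumours, Pcdhb16 was 181 in replicate 4, against 276 to 282, and Pcdhb8 was 51.7 in replicate 1, against 17.6 to 22.9. All are normalised counts.

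The guide effect differed between TDMa culture and TDM culture in the limma interaction for 8 members. The log2 differences were -3.55 for Pcdhb3, -1.95 for Pcdhb11, -1.34 for Pcdh7, -1.31 for Pcdh12, 0.76 for Pcdhb16, 1.15 for Pcdhb14, 1.24 for Pcdhb22 and 1.63 for Pcdhgb2. Between TDMa tumours and TDMa culture it differed for 6 members, by -1.83 for Pcdh17, -1.83 for Pcdhb18, -1.05 for Pcdhb19, 1.27 for Pcdh7, 1.73 for Pcdhb14 and 2.05 for Pcdhb15. Both comparisons use the TDMa culture libraries.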

How the results depend on the processing

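Of the calls made, 9 of 14 in TDMa culture and 11 of 12 in TDMa tumours held under every alternative run, as did 3 of 8 between the lines and 5 of 6 between tumours and culture. In TDMa culture these included Pcdhb3, Pcdhb4, Pcdhb9, Pcdhb10, Pcdhgb2 and Pcdh19 (described above without a p), which passed the filter through a single guide. The same holds for Pcdhb8 and Pcdhb12 in TDMa tumours and for Pcdhb3 between the lines. For such genes a call that held is no further support. In TDM culture the count of members called was 0, and 1 with a replicate block (Pcdh7). With a mean of at least 50, the count was 7 in TDMa tumours in place of 12, 5 between the lines in place of 8, and 3 between tumours and culture in place of 6, with fewer genes tested. Leaving out each library gave 0 to 1 in TDM culture, 10 to 14 in TDMa culture, 11 to 13 in TDMa tumours, 4 to 9 between the lines and 5 to 7 between tumours and culture. A lone library left in a group is then assumed to vary like the other groups. The log2 fold change of uncalled members changed sign when a library was left out. In TDM culture it ran from -0.054 to 0.19 for Pcdhb3, -0.23 to 0.014 for Pcdhb17, -0.15 to 0.61 for Pcdhb15, -0.31 to 0.69 for Pcdhb18, -0.99 to 0.76 for Pcdhb19, -0.17 to 1.12 for Pcdhb11 and -0.21 to 0.022 for Pcdhb5. For Pcdhgb8 it ran from -0.69 to 0.10 in TDMa culture and from -0.43 to 0.17 in TDMa tumours. For Pcdh1 in TDMa tumours it ran from -0.0061 to 0.36, and was -0.27 with quantile normalisation. The cause was not tested. Same-numbered libraries did not deviate together (correlations from -0.264 to 0.148), which gave no sign of pairing. With 2 libraries for each guide in culture this cannot exclude pairing, and the main fits were unpaired. With the replicate block, 16 members were called in TDMa culture and 11 in TDMa tumours. Genes near the filter rest on few reads, where a difference may not be detectable at this depth.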
